A study of Oryctolagus cuniculus with 6 samples.

Results

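Matrix metalloproteinases (MMPs) are secreted or membrane-bound zinc enzymes that cut the proteins of the extracellular matrix, and tissue inhibitors of metalloproteinases (TIMPs) are small secreted proteins that block them. The genes described here are those named MMP2, MMP3, MMP9, MMP13, MMP14, TIMP1, TIMP2 and TIMP3 in a table of gene counts from rabbit (Oryctolagus cuniculus) tissue. Of these 8 genes, 6 have a row among the 16367 genes of the table, and MMP14 and TIMP2 are not analysed here. RNA was sequenced from 3 control and 3 test samples, grouped by their titles. They are perichondral tissue (the connective sheath of cartilage) by the series title but subcutaneous tissue by the sample labels. The labels give no strain, age, sex, genotype, treatment or time for either group, and do not name what the test samples were given. Nor do they say if each library is from an animal of its own. The spread that p-values are set against is that between these libraries, which may be technical.

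Most MMPs are made as inactive proenzymes, opened by other proteases in the tissue, and then held in check when a TIMP fills their active site. MMP13 (collagenase 3) cleaves fibrillar collagen and is best known from cartilage and bone. MMP3 (stromelysin 1) cleaves proteoglycans and opens other pro-MMPs, MMP2 and MMP9 (the gelatinases) cut denatured collagen and basement membrane, and TIMP3, unlike the other TIMPs, stays bound to the matrix. These roles are known mainly from human and mouse.

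Total counts ranged from 21923246 to 23105606 in control libraries and from 17820537 to 21199562 in test libraries. The 13 mitochondrially encoded genes took 10.1% to 13.3% of counts in control and 6.97% to 7.78% in test libraries. Levels are given as CPM, edgeR's depth-scaled counts, which correct for total reads and TMM factors. They are not compared between genes, because transcript lengths were not used. Differences were tested with edgeR's quasi-likelihood test, adjusted by the Benjamini-Hochberg method over 12740 genes and called at an adjusted p under 0.05. Errors beside a mean are SD over 3 libraries and errors beside a log2 fold change are standard errors.

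Of the 6 genes, MMP9 and TIMP1 rose in the test tissue, by 3.13-fold and 2.91-fold, and none fell. Among all tested genes, 6.84% were called higher and 6.15% lower. MMP2, MMP3, MMP13 and TIMP3 did not pass the test. The control libraries held widely different levels of MMP13, MMP3 and TIMP3, all of them highest in control replicate 2. The median log2 fold change of the 6 genes was 0.63, beside -0.0038 for all tested genes. All 6 passed the filter on low counts. Test and control values did not overlap for 2 of the 6, and for 35.0% of all tested genes. Reads were counted in whole tissue, where fewer cells of a type and less RNA per cell cannot be told apart.

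**Figure D1:**
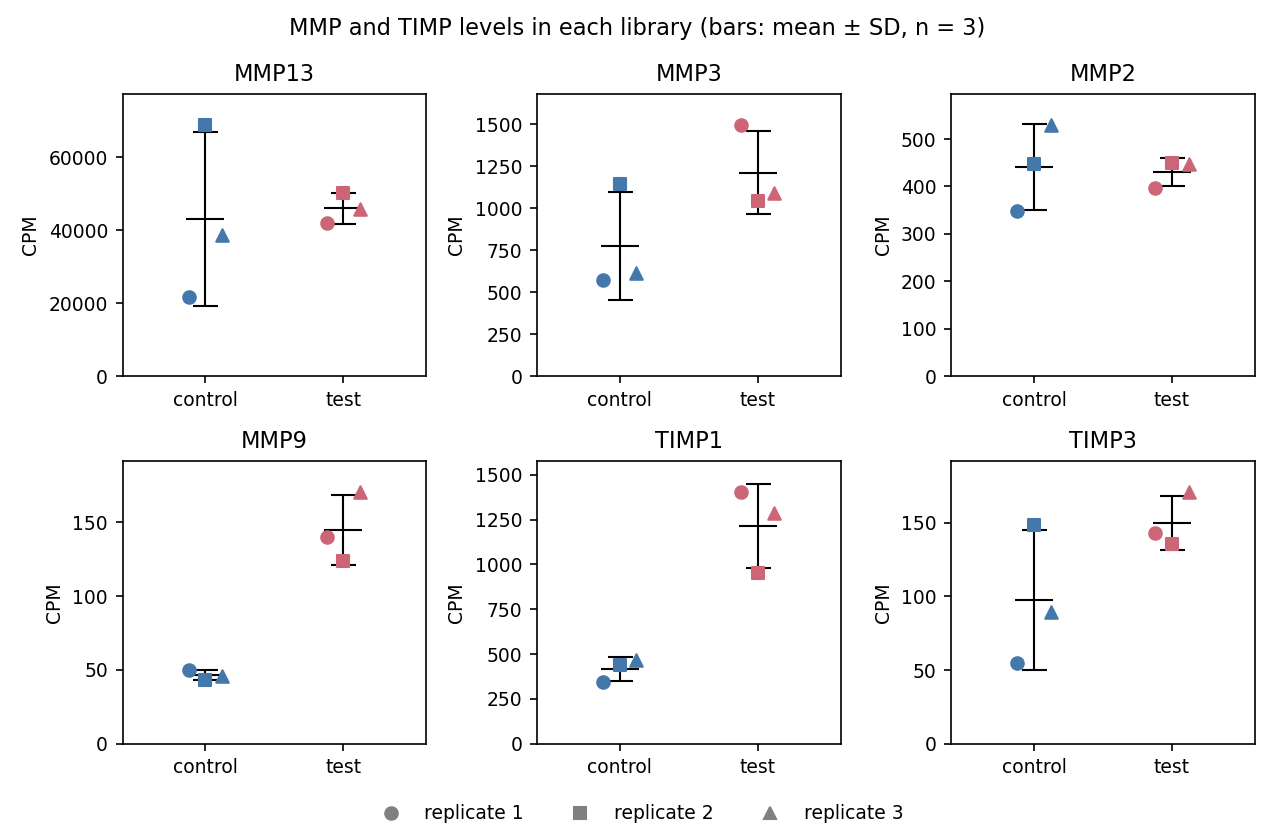
Level of each gene in CPM (vertical axes, linear, from 0) in the 3 control (blue) and 3 test (red) libraries, with marker shape giving the replicate number and black bars the mean ± SD. MMP9 and TIMP1 separate the groups, with test values from 123.9 CPM and from 950.2 CPM upward, while the control values of MMP13 run from 21678 to 68865 CPM and span all test values.

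The collagenase MMP13 (ENSOCUG00000002481) gathered 524814, 1501434 and 871035 reads in control replicates 1 to 3 and 740103, 998825 and 954005 reads in test replicates 1 to 3. It took 2.35%, 6.50% and 3.97% of all counts in the controls, and 4.15%, 4.91% and 4.50% in the test libraries. The 95% Wilson intervals of these shares reach at most 0.0101 percentage points to either side and cover counting error only. By read count, which grows with transcript length, MMP13 ranked first of all genes in control replicate 2 and test replicate 2 and in place 2 in each of the other libraries.

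MMP13 differed more within the control group than between the groups. Its control levels were 21678, 68865 and 38664 CPM, a 3.18-fold range, and its test levels were 41879, 50242 and 45864 CPM, a 1.20-fold range. All test values lay between the second and the highest control value. The log2 fold change was 0.09 ± 0.31 (95% interval -0.60 to 0.79, edgeR adjusted p = 0.875), so the interval runs from 0.659-fold to 1.73-fold. With control replicate 2 left out the estimate was 0.61, and with control replicate 1 left out it was -0.21, and it passed the test in neither case. The mean share of counts was 4.27% ± 2.09 in controls and 4.52% ± 0.378 in test libraries (two-sided exact permutation p = 0.8, n = 3 per group, where the smallest possible p is 0.1). The SD of log2 CPM of MMP13 among controls was 0.83, larger than that of 88.8% of tested genes, and among test libraries it was 0.13, larger than that of 32.1%.

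The stromelysin MMP3 (ENSOCUG00000029337) stood at 570.3, 1146 and 613.3 CPM in control replicates 1 to 3 and at 1497, 1045 and 1094 CPM in test replicates 1 to 3. Control replicate 2 lay inside the range of the test libraries, while control replicates 1 and 3 lay below it. The log2 fold change was 0.64 ± 0.25 (95% interval 0.09 to 1.20), which did not pass after adjustment (edgeR unadjusted p = 0.0273, adjusted p = 0.12). Without control replicate 2 it was 1.04 and passed (edgeR adjusted p = 0.00228). The DESeq2 Wald test on all 6 libraries also called MMP3 (adjusted p = 0.0423), at nearly the same fold change, 0.64.

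The gelatinase MMP2 (ENSOCUG00000006714), which is made by fibroblasts and other mesenchymal cells, stood at 347.3, 446.4 and 529.7 CPM in controls and at 397.5, 449.7 and 446.3 CPM in test libraries. The test values lay within the control range. The log2 fold change was -0.03 ± 0.15 (edgeR adjusted p = 0.913), with a 95% interval from 0.774-fold to 1.23-fold.

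The gelatinase MMP9 (ENSOCUG00000016101), which neutrophils, macrophages and osteoclasts are known to make, had 1208, 939 and 1033 reads in control replicates 1 to 3 and 2482, 2463 and 3544 reads in test replicates 1 to 3. Its levels were 49.9, 43.1 and 45.9 CPM in controls and 140.4, 123.9 and 170.4 CPM in test libraries. Every test value was above every control value, and the 3 controls lay within 1.16-fold of each other. MMP9 rose by 1.65 ± 0.14 on the log2 scale, with group means of 46.3 ± 3.43 and 144.9 ± 23.6 CPM (95% interval 1.33 to 1.96, edgeR adjusted p = 0.000268). The interval of MMP9 reaches from 2.51-fold to 3.90-fold, and that of MMP2 ends at 1.23-fold.

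Some markers of cells that are known to make MMP9 also differed between the groups, and others did not pass. Of all tested genes, 6.84% were called higher and 6.15% lower. In the neutrophil list, 3 of 6 tested genes rose (S100A8, S100A9 and S100A12) and 0 fell, and its summed level was 73.9 to 135.3 CPM in controls and 408.4 to 463.7 CPM in test libraries. Its granule enzyme MPO was at 0 in 5 of the 6 libraries, and the receptors CSF3R, CXCR1 and CXCR2 did not pass. In the giant cell and osteoclast list, both tested genes rose, the proton pump subunit ATP6V0D2 and the protease CTSK. Summed levels were 3078 to 3604 CPM in controls and 6226 to 6595 CPM in test libraries. Nearly all of this was CTSK, at 3072 to 3595 CPM in controls and 6179 to 6556 CPM in test libraries. Of that list's other genes with a row, CALCR was at 0 in 5 of 6 libraries and OCSTAMP in 3 of 6. ACP5, DCSTAMP, TNFRSF11A and NFATC1 have no row under these symbols. In the macrophage list, 2 of 10 genes rose (CD68 and CD14), 1 fell (CD163) and 7 were not called. Summed levels were 3009 to 3168 CPM in controls and 2518 to 2866 CPM in test libraries. CD163 was the largest single part of each sum, at 1133 to 1408 CPM in controls and 645.1 to 812.6 CPM in test libraries. The lower sum thus does not describe the list as a whole. The number of macrophage genes that rose was 4 without control replicate 1 and 0 without test replicate 2. It was 1 without control replicate 3, test replicate 1 or test replicate 3. The part of these cells in the MMP9 result was not tested.

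The inhibitor TIMP1 (ENSOCUG00000010718), a soluble TIMP that also binds pro-MMP9, had 8314, 9601 and 10535 reads in control replicates 1 to 3 and 24778, 18891 and 26775 reads in test replicates 1 to 3. Its levels were 343.4, 440.4 and 467.6 CPM in controls and 1402, 950.2 and 1287 CPM in test libraries. The lowest test library was above the highest control. TIMP1 rose from 417.1 ± 65.3 to 1213 ± 235 CPM, by 1.54 ± 0.17 on the log2 scale (95% interval 1.16 to 1.92, edgeR adjusted p = 0.000714).

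The matrix-bound inhibitor TIMP3 (ENSOCUG00000008310) stood at 54.5, 148.6 and 89.5 CPM in control replicates 1 to 3 and at 143.2, 136 and 170.7 CPM in test replicates 1 to 3. Control replicate 2 lay among the test libraries and the other controls lay below them. The log2 fold change was 0.62 ± 0.29 (95% interval -0.01 to 1.25, edgeR adjusted p = 0.179). Without control replicate 2 it was 1.06 and passed (edgeR adjusted p = 0.00702). The number of the 6 genes called higher was then 4 in place of 2.

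**Figure D2:**
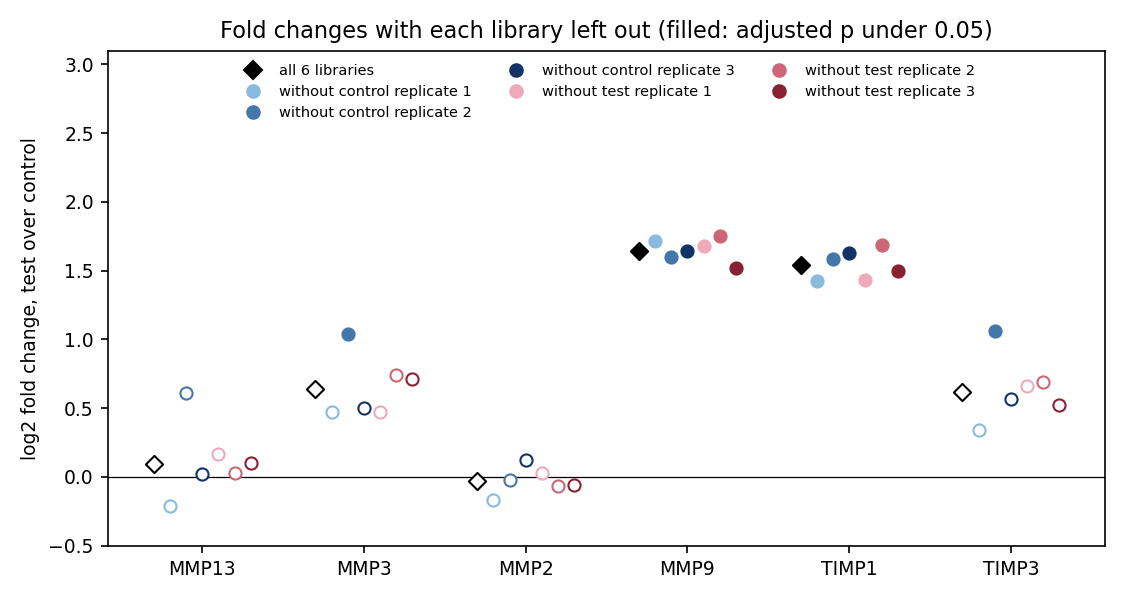
Log2 fold change of the 6 genes (vertical axis, test over control) with all libraries (black diamonds) and with each library left out in turn (circles), filled where the edgeR adjusted p is under 0.05. MMP9 stays between 1.52 and 1.75 and TIMP1 between 1.43 and 1.69, while MMP3 and TIMP3 are filled only without control replicate 2.

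A balance of proteinase and inhibitor transcripts was read within each library, where no scaling between libraries is needed. It covers only genes with a row, so MMP14 and the inhibitor TIMP2 are in neither sum. The summed counts of MMP2, MMP3, MMP9 and MMP13 were 56.9, 119.7 and 71.5 times those of TIMP1 and TIMP3 in control replicates 1 to 3, and 28.4, 47.7 and 32.6 times in test replicates 1 to 3. Every test library had a lower ratio than every control. On the log2 scale the ratio was 6.30 ± 0.55 in controls and 5.14 ± 0.39 in test libraries, a difference of -1.15 (two-sided exact permutation p = 0.1 with n = 3 per group, the lowest p these numbers can give). MMP13 alone held 85.5% to 92.9% of the counts of the 13 MMP genes with a row, a wider set than the MMP genes summed here. TIMP1 made most of the inhibitor sum, with 8314 to 26775 reads in a library beside 1319 to 3551 of TIMP3. The summed ratio is thus largely that of MMP13 to TIMP1. TIMP1 was itself called higher, so this ratio is not separate from that call. Without MMP13 the difference was -0.88 for the summed MMP2, MMP3 and MMP9, again with no overlap (exact permutation p = 0.1). These sums leave out MMP1, at 30652 to 70047 reads in controls and 52676 to 56228 in test libraries. They also leave out MMP12, at 8229 to 20173 reads in controls and 32446 to 45911 in test libraries. MMP1 alone had more reads than any of MMP2, MMP3 and MMP9 in every library. A ratio with MMP1 and MMP12 added was not computed. The lack of overlap without MMP13 therefore holds for MMP2, MMP3 and MMP9 only, and may not hold for a wider set. With a mean of log2 counts over genes in place of the sum, the difference was -0.49 (exact permutation p = 0.1), a smaller one. Such ratios compare read counts, not molecules or enzyme activity.

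Each proteinase was also set against TIMP1 alone, which restates the levels above within each library. The ratios were not tested against each other. MMP9 to TIMP1 was 0.145, 0.0978 and 0.0981 in the controls, in order of replicate number, and 0.1, 0.13 and 0.132 in the test libraries, so the groups overlapped (difference of log2 ratios 0.10, exact permutation p = 0.8, n = 3 per group). MMP2 to TIMP1 was 1.01, 1.01 and 1.13 in controls and 0.284, 0.473 and 0.347 in test libraries, a difference of -1.55. MMP13 to TIMP1 was 63.1, 156.4 and 82.7 in controls and 29.9, 52.9 and 35.6 in test libraries, a difference of -1.29. MMP3 to TIMP1 differed by -0.83. None of these 3 overlapped between the groups (exact permutation p = 0.1 each, n = 3 per group). All 3 have TIMP1, itself called higher, as the denominator, so they are not separate from that call. How often ratios of other genes to TIMP1 overlap was not computed.

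**Figure D3:**
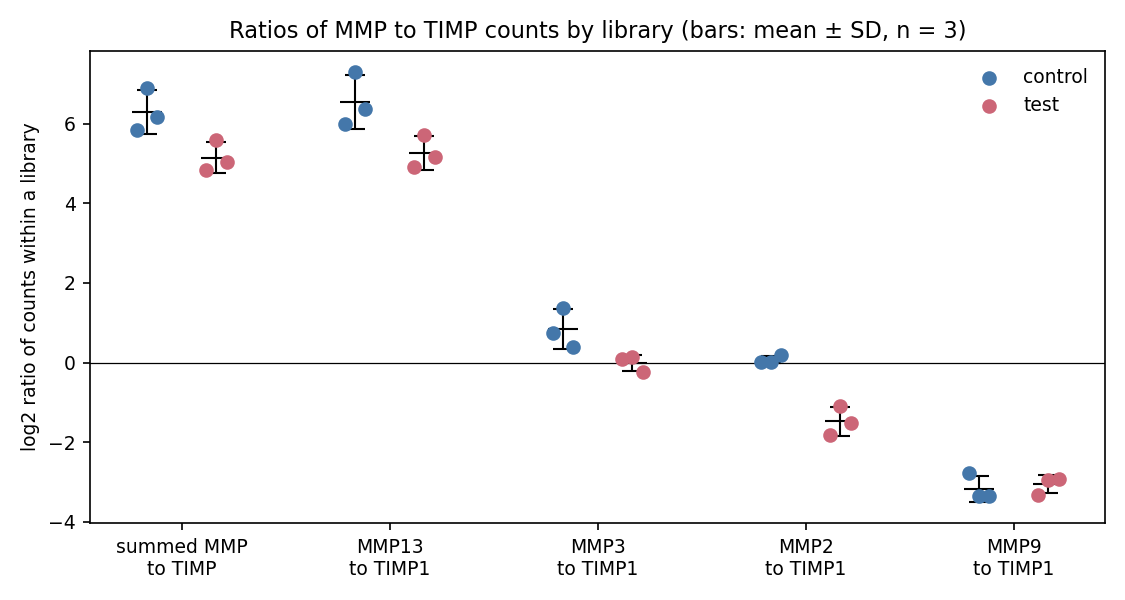
Log2 ratio of counts within a library (vertical axis) for the summed MMP and TIMP genes and for each MMP against TIMP1, in control (blue) and test (red) libraries, with bars for mean ± SD. The test points of the summed ratio lie at 4.83 to 5.58, below the controls at 5.83 to 6.90, and only the MMP9 ratio overlaps.

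The inhibitors were also set against each other. TIMP1 to TIMP3 was 6.30, 2.96 and 5.23 in the controls and 9.79, 6.99 and 7.54 in the test libraries, without overlap (log2 difference 0.80, exact permutation p = 0.1, n = 3 per group). Against TIMP3, the MMP13 ratio was lower in every test library (log2 difference -0.49, exact permutation p = 0.1), and the MMP2, MMP3 and MMP9 ratios overlapped between groups. In all, 11 ratios of single genes were compared, chosen after the data were seen. Many of them share a gene, and after Benjamini-Hochberg adjustment of their exact permutation p-values the smallest is 0.22.

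Of 20 further family genes (the other MMPs, TIMP4 and RECK), 11 have a row and 9 were tested. MMP12 alone passed, beside 13.0% of all tested genes called in either direction. MMP12, the macrophage elastase, stood at 495.4, 925.3 and 365.3 CPM in control replicates 1 to 3 and at 1836, 1734 and 2207 CPM in test replicates 1 to 3. The lowest test library was well clear of the highest control. MMP12 rose by 1.69 ± 0.28 on the log2 scale (edgeR adjusted p = 0.00542). The interstitial collagenase MMP1 stood at 1347, 3213 and 1361 CPM in controls and at 3182, 2659 and 2532 CPM in test libraries. Control replicate 2 was the highest library of all and controls 1 and 3 the lowest. The log2 fold change of MMP1 was 0.50 ± 0.29 (edgeR adjusted p = 0.291), and 1.05 without control replicate 2 (edgeR adjusted p = 0.000423), which made 2 family genes called higher in place of 1.

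The other tested family genes had lower counts. TIMP4 had a log2 fold change of 1.01 ± 0.60, MMP11 of 0.61 ± 0.34, MMP15 of 0.39 ± 0.18, RECK (a membrane-anchored inhibitor of MMPs) of 0.24 ± 0.33 and MMP16 of 0.23 ± 0.33. MMP28 stood at 0.05 ± 0.69 and MMP10 at -0.05 ± 0.44. None of these 7 genes passed (edgeR adjusted p between 0.181 and 0.972). MMP7 and MMP27 had too few reads to be tested, with 0 to 10 and 1 to 14 reads in a library. The median log2 fold change of the 9 tested genes was 0.39, beside -0.0038 for all tested genes.

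**Figure D4:**
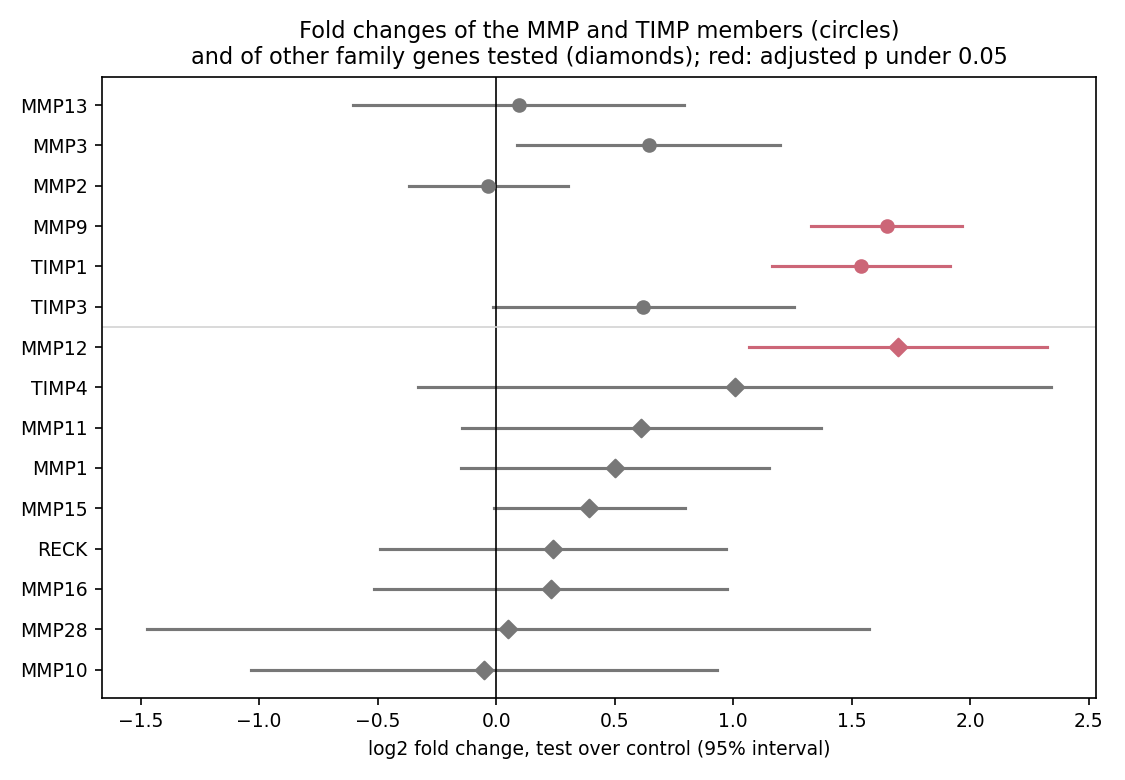
Log2 fold change, test over control (horizontal axis), with its 95% interval for the 6 genes (circles, above the line) and the 9 other family genes tested (diamonds), in red where the edgeR adjusted p is under 0.05. MMP9, TIMP1 and MMP12 are red, at 1.65, 1.54 and 1.69.

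MMP13, MMP3, MMP1 and MMP12 lie side by side in the rabbit genome. RefSeq gene records of the assembly mOryCun1.1 list MMP8, MMP10, MMP1, MMP3, MMP12 and MMP13 in this order with no other protein-coding gene between them. The neighbours did not all follow the same pattern over the 6 libraries. MMP3 and MMP1 had nearly the same profile, with a root mean square difference of 0.13 in centred log2 CPM (each gene minus its own mean). The difference from MMP12 was 0.61 for MMP3 and 0.87 for MMP13. MMP3 to MMP1 stayed between 0.357 and 0.471 in every library, while MMP13 to MMP1 ran from 13.2 to 28.4. Related MMP genes can share reads where their sequences are alike, so values of MMP1, MMP3, MMP10 and MMP12 carry that uncertainty.

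The profile of each gene over the 6 libraries was set beside those of 7559 other genes with a symbol and a mean of at least 5 CPM. Nearest to MMP13 was HAPLN1, the link protein of cartilage proteoglycan, with a root mean square difference of 0.10, followed by COL25A1 at 0.11 and CP at 0.12. MMP9 and TIMP1 had the same pair of nearest genes, SMOX, a polyamine oxidase (0.13 and 0.17), and OLFML2B, an extracellular matrix protein (0.18 and 0.18). Next came GADD45G for MMP9 and AOPEP for TIMP1. MMP9 and TIMP1 differed from each other by 0.24. Nearest to MMP3 were TIMM9 (0.09), MMP1 (0.13) and RALGPS2 (0.13), to TIMP3 AUTS2 (0.08), TMEM45A (0.08) and LAYN (0.09), and to MMP2 UBE2L3, C9orf64 and ARMCX3 (0.06 to 0.07). These are descriptions over 6 libraries, in which a shared difference between the groups also makes genes alike.

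**Figure D5:**
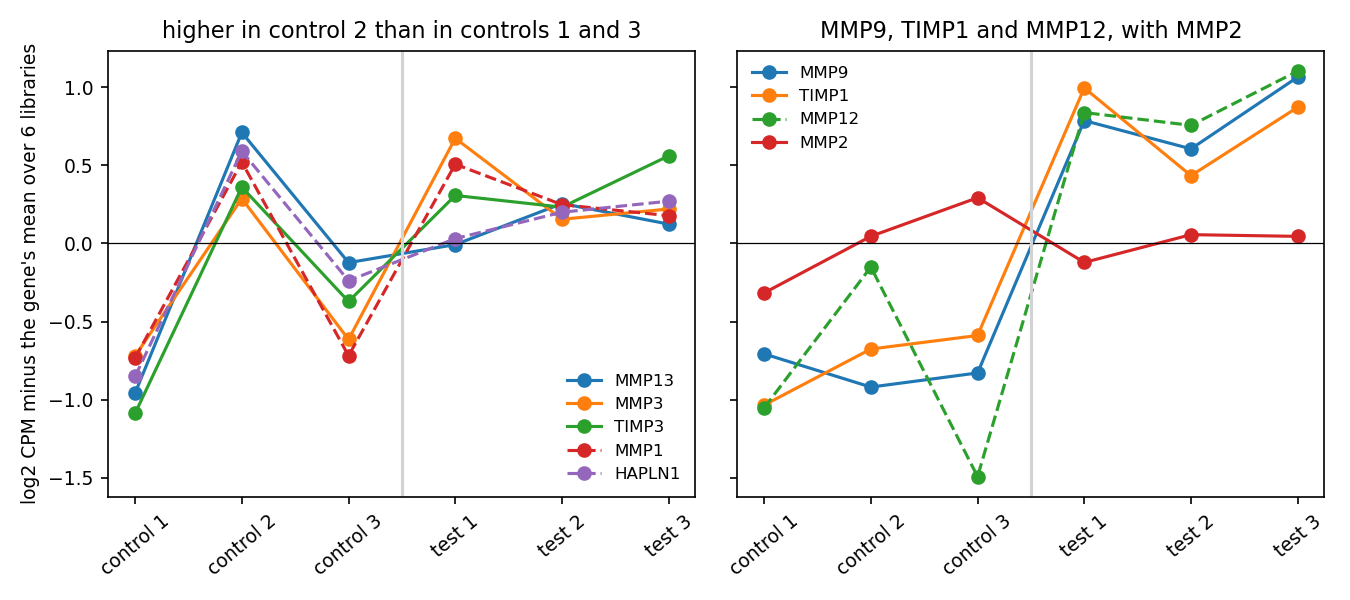
Log2 CPM minus each gene's mean over the 6 libraries (vertical axis), by library, for genes higher in control 2 than in controls 1 and 3 (left) and for MMP9, TIMP1, MMP12 and MMP2 (right), with dashed lines for genes outside the 6. HAPLN1 tracks MMP13 with a root mean square difference of 0.10, and the right panel shows MMP9 and TIMP1 above 0 in all test and below 0 in all control libraries.

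Most chondrocyte markers, but not MATN1, were lowest in control replicate 1, as MMP13 was. Genes of other lists were lowest there too, among them the fibroblast markers LUM and FAP, and FN1 and SERPINE2. The summed level of the 7 chondrocyte markers with a row was 2468 CPM in control replicate 1 and 5651 and 5013 CPM in control replicates 2 and 3. It was 4688, 5117 and 6290 CPM in test replicates 1 to 3. HAPLN1 stood at 331.5, 900.4 and 507 CPM in control replicates 1 to 3 and at 611.1, 687 and 721.5 CPM in test replicates 1 to 3, and was chosen here as the nearest profile to MMP13. MATN1 (matrilin 1) ran the other way among controls, at 584.9, 348.1 and 457.2 CPM in replicates 1 to 3. None of the 7 markers passed the edgeR test between groups, though 1 rose with limma-voom, with no filter on low counts or without control replicate 1, 2 rose without control replicate 2 (among them HAPLN1, by 0.69 on the log2 scale, at an edgeR adjusted p of 0.0228), and 2 fell without control replicate 1. ACAN alone of the 7 did not overlap between the groups, at 548.4 to 1552 CPM in controls and 1757 to 2343 CPM in test libraries. Its log2 fold change was 0.99 ± 0.30, just short of passing (edgeR adjusted p = 0.0554). COL2A1, the collagen of hyaline cartilage, was present at 471.1 to 1446 CPM in every library. Of all tested genes, 6.84% were called higher and 6.15% lower. In the list of hypertrophic cartilage and bone, 3 of 5 tested markers rose (SP7, ALPL and SPP1) and 0 fell. Summed levels were 136.5 to 584.7 CPM in controls and 886.9 to 1014 CPM in test libraries. SPP1 alone stood at 74.4 to 281.3 and 654.1 to 661.5 CPM, and IBSP overlapped between the groups and was not called. SP7 had 0 reads in controls and 30 to 37 in test libraries, and ALPL stood at 0.58 to 1.01 and 2.49 to 5.72 CPM. Without test replicate 2 or 3 the number that rose was 1. With a mean CPM of at least 5, 1 of 3 tested markers rose. The part of cartilage and bone content in the MMP13 values was not tested. Of the fibroblast markers, 5 of 8 were lower and 0 higher (1 with DESeq2). LUM, FAP and PDGFRB did not pass, with log2 fold changes of 0.14, 0.30 and 0.40. Summed levels were 17098 to 23736 CPM in controls and 11053 to 13323 CPM in test libraries. COL1A1 and COL1A2 made most of each sum, with means of 5107 and 10994 CPM in controls and 2990 and 5800 CPM in test libraries. The number of fibroblast markers that fell was 2 without control replicate 3 or without any of the 3 test replicates. Of the 5 endothelial markers 1 fell and 0 rose, with 4 lower without control replicate 2 and 0 lower without control replicate 3 or any single test replicate. All 7 tested skeletal muscle markers rose, from summed levels of 2.89 to 6.51 CPM in controls to 55.3 to 72.4 CPM in test libraries.

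Among genes that open, clear or bind MMPs, more rose than fell. Of 10 tested genes, 5 rose and 1 fell, beside 13.0% of all tested genes called in either direction. LCN2 (lipocalin 2), which forms a complex with MMP9 in human neutrophils, stood at 2.77, 4.45 and 4.57 CPM in control replicates 1 to 3 and at 15.4, 16.9 and 12.5 CPM in test replicates 1 to 3. It rose by 1.93 ± 0.28 on the log2 scale (edgeR adjusted p = 0.00288). FURIN, the convertase that opens membrane-type MMPs, rose with a log2 fold change of 0.86 ± 0.12. The urokinase PLAU rose by 0.76 ± 0.11 and its receptor PLAUR by 1.17 ± 0.15 on that scale. These 3 had edgeR adjusted p-values of 0.00271, 0.00325 and 0.00177. The other plasminogen activator PLAT fell (-1.11 ± 0.28, edgeR adjusted p = 0.0293). The PLAT call ended without control replicate 3 or any single test replicate (adjusted p 0.0769 to 0.117), and with limma-voom (0.0511). Without control replicate 1, 3 of the 10 genes fell.

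Of 9 tested transcription factors known to act at MMP promoters, 4 rose and 0 fell, beside 6.84% higher and 6.15% lower of all tested genes. The AP-1 subunits FOS, FOSB and JUN had log2 fold changes of 0.79 ± 0.13, 0.70 ± 0.13 and 0.56 ± 0.14, and ETS2 of 1.12 ± 0.16 (edgeR adjusted p = 0.00418, 0.0102, 0.0265 and 0.00237). FOSB was not called without test replicate 2 or 3 (0.0548 and 0.0595), and JUN not without these or control replicate 3 (0.0821 to 0.122), which leaves 2 of the 9 higher without test replicate 2 or 3. RUNX2, a regulator of MMP13 in cartilage and bone, stood at 10.7 to 16.3 CPM in controls and 13.8 to 19.7 CPM in test libraries. It did not pass (log2 fold change 0.31 ± 0.23, edgeR adjusted p = 0.41). NFKB1 had the only negative estimate of the 9 (-0.38 ± 0.13), without overlap between the groups, and did not pass (edgeR adjusted p = 0.0756). JUNB, JUND, ETS1 and RELA have no row under these symbols.

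Among 14 tested genes for MMP substrates, 5 fell and 2 rose, beside 6.15% lower and 6.84% higher of all tested genes. This list shares COL1A1 and COL1A2 with the fibroblast markers above, and SPP1 with those of hypertrophic cartilage and bone. The fibrillar collagen chains COL1A1, COL1A2 and COL3A1 fell by 0.77, 0.92 and 1.02 on the log2 scale, and the basement membrane chain COL4A1 fell by 0.91 (edgeR adjusted p from 0.00277 to 0.026). The proteoglycan core BGN and the bone matrix protein SPP1 rose by 1.16 and 1.79 (edgeR adjusted p = 0.00446 and 0.013). Without control replicate 3 or any single test replicate, 2 substrate genes fell, and the calls of COL1A1 and COL4A1 ended (adjusted p 0.0567 to 0.112). Without test replicate 2 or 3, SPP1 was not called (0.0552 and 0.0517), which leaves 1 higher. The number higher was 4 with no filter on low counts, with limma-voom, and without control replicate 1 or 2.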

How the data were processed

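The deposited table gives raw counts per gene for 6 libraries, per the file headers, and lists protein-coding genes without positions. A further 6 per-sample columns of normalized values were not used. Per the labels, RNA was depleted of ribosomal RNA and made into stranded libraries. The submitters' processing notes name cutadapt 1.9.3, HISAT2, Cuffdiff and the rat build rn6 without roles, while the identifiers are rabbit Ensembl IDs. The counting tool and its strand setting are not given in the sources used here. Groups and replicate numbers come from sample titles.

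Genes were found by symbol, and 5067 of 16367 genes have none. The comparison used edgeR 4.0.16 in R 4.3.3 (TMM, filterByExpr with a minimum count of 10 and a minimum total of 15, no covariate). Standard errors were obtained from each log2 fold change and its quasi-likelihood F statistic. Profiles used log2 CPM with a prior count of 2. Ratios and shares were compared with exact permutation tests (scipy 1.17.1). Alternatives were DESeq2 size factors, normalization without the counts of the genes described, no filter, a mean CPM of at least 5, DESeq2 1.42.0, limma-voom (limma 3.58.1), a replicate block and leaving out each library. The fits were tested on simulated data. The genes and lists were chosen with earlier results of these data known. Of each list up to 6 called genes with the smallest p were named, and other genes were named after their values were seen. A called gene that the rule would name is counted but not reported here. Plots were made with matplotlib 3.10.9.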

Additional observations from a re-analysis of the deposited data

How the results depend on the processing

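MMP9 and TIMP1 were called under all 13 alternatives. Leaving out single libraries gave log2 fold changes of 1.52 to 1.75 for MMP9, 1.43 to 1.69 for TIMP1, 0.47 to 1.04 for MMP3, 0.34 to 1.06 for TIMP3, -0.21 to 0.61 for MMP13 and -0.17 to 0.12 for MMP2. The number of the 6 genes called higher was 2 to 4 and that of other family genes 1 to 2, the upper value in each case without control replicate 2. The DESeq2 Wald test called MMP3 as well, at 0.64, so that 3 were called. Uncalled estimates that changed sign ran from -0.31 to 0.35 for MMP10, -0.0078 to 0.41 for MMP16, -0.42 to 0.37 for MMP28 (-0.0194 with limma-voom), and -0.0946 to 0.62 for RECK. That of HAPLN1 ran from -0.0534 to 0.69 and was called at the upper value. The cause was not tested. The difference in MMP13's share of counts was -0.715 to 1.36 percentage points, and 0.077 with mitochondrially encoded genes left out of the total. The log2 difference of summed MMP to TIMP counts was -1.39 to -0.85, and -0.49 with a mean of log2 counts in place of the sum. That of MMP3 to TIMP3 was -0.23 to 0.14 and that of MMP3 to MMP1 -0.0205 to 0.15. Counts of all genes called fell from 1655 to 710 without control replicate 3 and to 595, 471 and 446 without test replicates 1 to 3.

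Same-numbered libraries did not deviate together (correlations of deviations from the group means 0.08, -0.02 and 0.02 for numbers 1 to 3), so the numbers are not taken as pairs, and not every library correlated best with its own number. With the replicate block 1681 genes were called, and of the 6 genes again 2, with 4 substrate genes higher in place of 2 and 1 chondrocyte marker higher in place of 0. With 3 libraries a group no exact permutation p can be under 0.1. For the 6 genes counting error is smaller than the spread between libraries. For genes with few reads it can be about as large, as for TIMP4 in the controls (21 to 28 reads).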
